A study of Homo sapiens with 36 samples.

Results

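RNA-seq of HCT-116 cells knocked out for FBXW7 was used to compare, under oxaliplatin (OXPT), cells exposed to the degrader #11 with cells silenced for HDAC4. HCT-116 is an established colorectal carcinoma line, and the knockout line (KO, FBXW7-/-) was the only genotype in the comparison, so every library lacks the ubiquitin ligase subunit FBXW7. The comparison held 6 of the 36 libraries of the series, chosen by their labels: 3 KO libraries with #11 and OXPT (#11 OXPT) and 3 KO libraries with an esiRNA against HDAC4 and OXPT (esiHDAC4 OXPT). The #11 libraries also carried the control esiRNA esiCT, and the esiHDAC4 libraries carried no #11. Silencing or degrader lasted 48 h, and OXPT was present at 50 µM for the last 24 h. One label gives #11 at 1 µM and another at 10 µM, and the files do not settle which was used. The study's text gives 1 µM for other HCT-116 experiments with 50 µM OXPT, and no dose of #11 for the RNA-seq. The same pair of arms without OXPT (#11 UNT and esiHDAC4 UNT, 3 KO libraries each) gave the same comparison in vehicle-treated cells. The labels do not say whether the 3 libraries of a group came from separate cultures, so p-values measure the spread between these libraries.

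HDAC4, HDAC5, HDAC7 and HDAC9 are the class IIa histone deacetylases, scaffold proteins with little catalytic activity of their own that bring NCOR and HDAC3 complexes to transcription factors such as MEF2. An esiRNA is a pool of short RNAs that destroys one transcript. A PROTAC such as #11 joins a ligand of its target to a ligand of a ubiquitin ligase, here a class IIa HDAC binder and a VHL ligand, and acts on the protein, not on its mRNA. The comparison therefore sets loss of 1 family member through its mRNA against a compound directed at the whole class, in cells with platinum-damaged DNA.

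The 6 libraries had between 12436981 and 16585667 reads counted on genes. Levels are CPM, counts scaled to a common library size with TMM factors. Replicate 3 of esiHDAC4 OXPT stood apart from its group. Its unmapped share was 13.38%, against 10.49% and 9.728% in replicates 1 and 2, and its mitochondrial share was 6.374% of counts, against 11.18% and 9.915%. MKI67, a marker of cycling cells, was at 20.9 CPM in it, against 151 and 226 CPM. HSP90AA1, the inducible HSP90 chaperone, was at 866 CPM, against 3679 and 5461 CPM. Counts of called genes under OXPT are therefore also given without this library. In all, 9 of 10 epithelial markers exceeded 1 CPM in at least 1 of the 12 libraries, with VIL1 at 0 to 0.495 CPM, and they summed to 10100 to 13100 CPM in #11 OXPT and to 9160 to 21300 CPM in esiHDAC4 OXPT. Of 12 markers of other cells, 3 exceeded 1 CPM in any library (COL1A1, ACTA2 and VWF), and the T cell marker CD3E did not pass 1 read in any. In such bulk libraries, fewer cells of a type and less RNA per cell cannot be told apart.

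HDAC4 itself separated the arms most clearly. HDAC4 (ENSG00000068024.18, minus strand, chr2:239048168-239401654, hg38) was at 19.0, 17.0 and 14.9 CPM in #11 OXPT and at 4.28, 3.49 and 4.13 CPM in esiHDAC4 OXPT. The lowest #11 library was thus well above the highest esiHDAC4 library, which is the direction that the silencing label gives. The means were 17.0 ± 2.02 and 3.97 ± 0.421 CPM (SD, n = 3), a log2 fold change of 2.10 (SE 0.25, edgeR adjusted p = 0.0126). The untreated arms differed in the same direction, by 1.12 (SE 0.23, adjusted p = 0.0144). The control cells with esiCT and OXPT, which the fit does not include, had 6.41, 5.78 and 7.61 CPM when all 18 KO libraries were scaled together. Under OXPT, HDAC4 mRNA thus lay above that control in each #11 library and below it in each esiHDAC4 library, with or without the control's replicate 3, which has many unmapped reads.

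**Figure D1:**
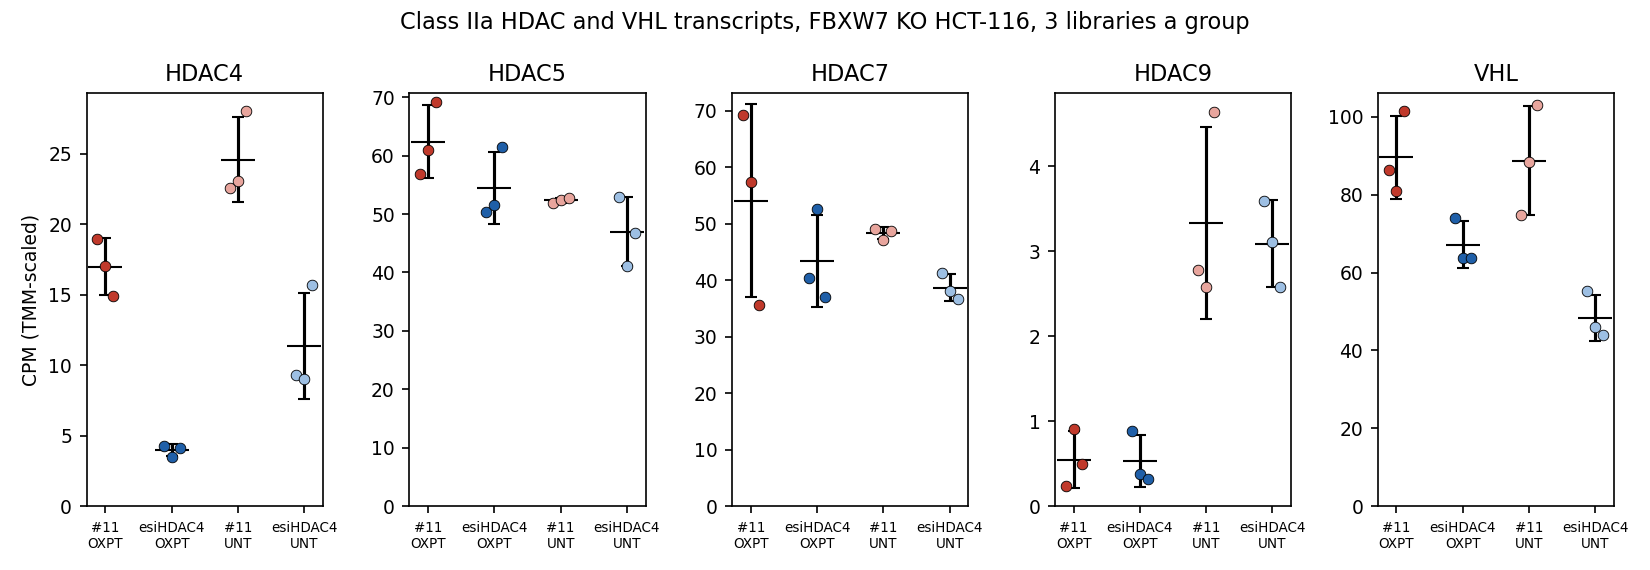
Level of the class IIa HDAC transcripts and of VHL, in CPM, in the 4 groups of KO libraries. Points are libraries, and bars are the mean and SD of 3 libraries. HDAC4 is at 14.9 CPM or above in #11 OXPT and at 4.28 CPM or below in esiHDAC4 OXPT, while the other 4 genes differ by less under OXPT.

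The other class IIa members did not pass the test under OXPT. HDAC5 was at 56.9, 60.9 and 69.2 CPM in #11 OXPT and at 50.4, 51.5 and 61.5 CPM in esiHDAC4 OXPT, overlapping ranges with a log2 fold change of 0.20 (SE 0.15, adjusted p = 0.497). HDAC7 varied more within #11 OXPT than between arms, at 69.3, 57.5 and 35.5 CPM against 40.4, 52.6 and 37.1 CPM, and its log2 fold change was 0.32 (SE 0.22, adjusted p = 0.442). HDAC9 had 3 to 14 reads in each of the 6 libraries, too few to be tested. Per kb of exon, HDAC4 in the #11 OXPT libraries (1.05 to 1.34 CPM per kb) was below HDAC5 (7.48 to 9.09) and HDAC7 (3.58 to 6.98) in the same libraries. VHL, the ligase subunit that #11 recruits, was at 86.3, 81.0 and 102 CPM against 74.1, 63.7 and 63.8 CPM. Its groups did not overlap, but its log2 fold change of 0.41 (SE 0.16) had an adjusted p of 0.194. In untreated cells VHL rose by 0.88 (SE 0.16, adjusted p = 0.00874).

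Across 12191 genes tested, 160 were called between #11 OXPT and esiHDAC4 OXPT (1.31%) where a call needs an adjusted p below 0.05 with more than 1.5-fold change. With #11, 109 were higher (0.894%) and 51 were lower (0.418%). With unadjusted p < 0.05, 1279 genes were higher (10.5%) and 1097 were lower (9%). All 160 called genes had no overlap between the CPM of the 2 groups, as did 11.3% of all genes tested in the higher direction and 4.99% in the lower. In size, the called genes ranged from 0.65 to 2.69 on the log2 scale where higher (median 1.18) and from -3.23 to -0.71 where lower (median -1.22). The direction of all 160 was kept in all 23 other ways of processing that tested them, but the call was not. With groups that do not overlap, the direction was largely fixed in advance, so keeping it is no separate support.

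The number of called genes depended on single libraries. Leaving out replicate 1 or 2 of #11 OXPT, or replicate 2 of esiHDAC4 OXPT, left 0 called genes in edgeR's test, with 1779, 1629 and 1356 genes with unadjusted p < 0.05. A fit of the 6 libraries alone also called 0, with 1432 at that unadjusted p, while DESeq2 on all 12 libraries called 635. Leaving out replicate 3 of esiHDAC4 OXPT gave 2499 called genes of 12239 tested, 1095 higher and 1404 lower, which held 159 of the 160. Counts of list members called without this library, given below, are to be read beside these totals. No gene was called in more than 9 of the 12 fits that left out 1 library, and 18 genes were called in 9: HDAC4, DUSP6, SPRY4, PADI3, CORO2B, GAS6, RPS6KA2, MAGI1, RALGPS1, PACS2, NPDC1, ACAD10 and TP53I11 among the higher, and CPA4, CCN1, TENT5B, GPAT3 and FTL among the lower. The other calls rest on fewer of these fits, and the plot of called genes with 1 library left out shows the spread.

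**Figure D2:**
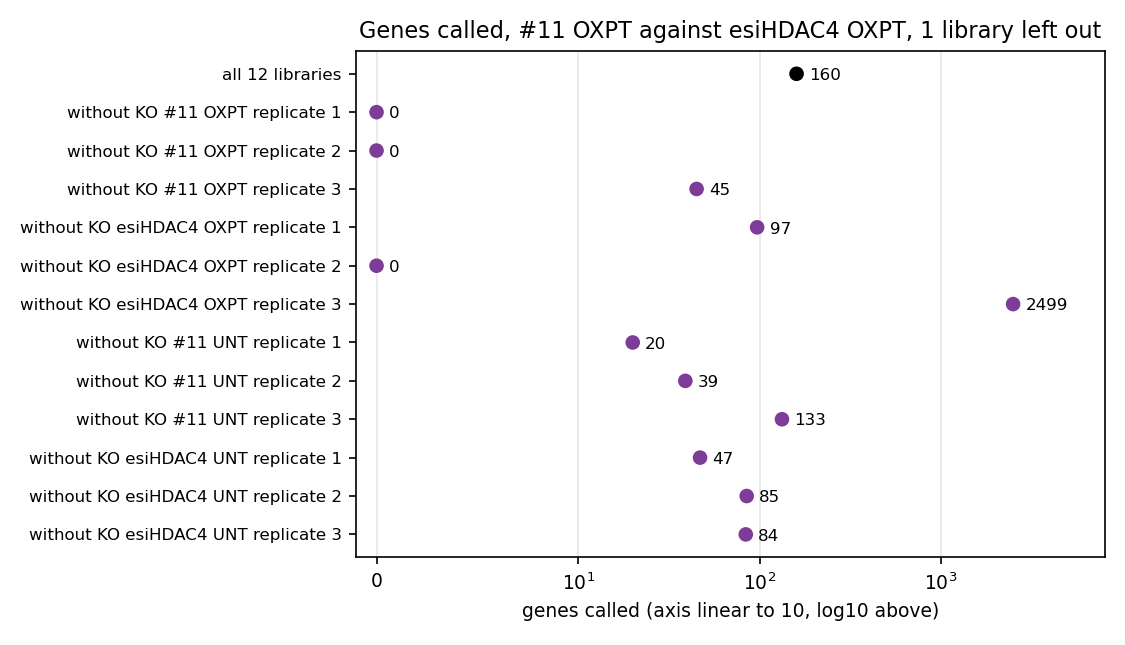
Number of genes called between #11 OXPT and esiHDAC4 OXPT with all 12 libraries in the fit (black) and with 1 library left out (purple); the axis is linear up to 10 and logarithmic above. The count runs from 0, without any 1 of 3 OXPT libraries, to 2499 without replicate 3 of esiHDAC4 OXPT.

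The largest rises with #11 were mostly of genes at low levels. CORO2B, a coronin that binds actin, was at 3.37, 2.49 and 4.04 CPM in #11 OXPT and at 0.252, 0.634 and 0.649 CPM in esiHDAC4 OXPT, a log2 fold change of 2.69 (SE 0.39, adjusted p = 0.0224). RGS6, which speeds GTP hydrolysis by G protein alpha subunits, was at 4.5, 4.37 and 1.48 CPM against 0.818, 0.380 and 0.649 CPM, with replicate 3 of #11 OXPT well below the other 2, and rose by 2.48 (SE 0.50, adjusted p = 0.0358). PADI3, an enzyme that turns arginine in proteins into citrulline, was at 14.5, 15.3 and 17.9 CPM against 3.65, 2.22 and 3.97 CPM and rose by 2.28 (SE 0.36, adjusted p = 0.0224). All 3 stood higher in every #11 library than in any esiHDAC4 library.

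EBF4, PRDM16 and ZNF469 were also among the 12 largest rises. EBF4, an early B-cell factor family member, was at 27.0, 19.0 and 24.0 CPM against 5.60, 3.55 and 10.7 CPM (log2 fold change 1.83, SE 0.40, adjusted p = 0.0469). PRDM16, a zinc finger protein with a PR/SET domain, had the same adjusted p at 3.13, 1.88 and 1.57 CPM against 0.629, 0.571 and 0.649 CPM, and the zinc finger gene ZNF469 rose by 1.81. EBF4 and PRDM16 were called in only 2 of the 12 fits that left out a library, and ZNF469 in only 1. LGALS7B, RPLP0P2, KRCC1 and KLRK1-AS1 complete the 12 largest rises, at 2.16, 1.99, 1.78 and 1.76. LGALS7B has a near-identical neighbour, LGALS7, RPLP0P2 is a pseudogene of a ribosomal protein gene, and KLRK1-AS1 is an antisense transcript counted without strand, so the reads behind these 3 are uncertain. LGALS7B also reached the mean count of 64 needed for the test only in #11 OXPT, the group where it is high, at 82 reads, so its place among the rises depends on that filter. It was called in only 1 of the fits that left out a library.

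**Figure D3:**
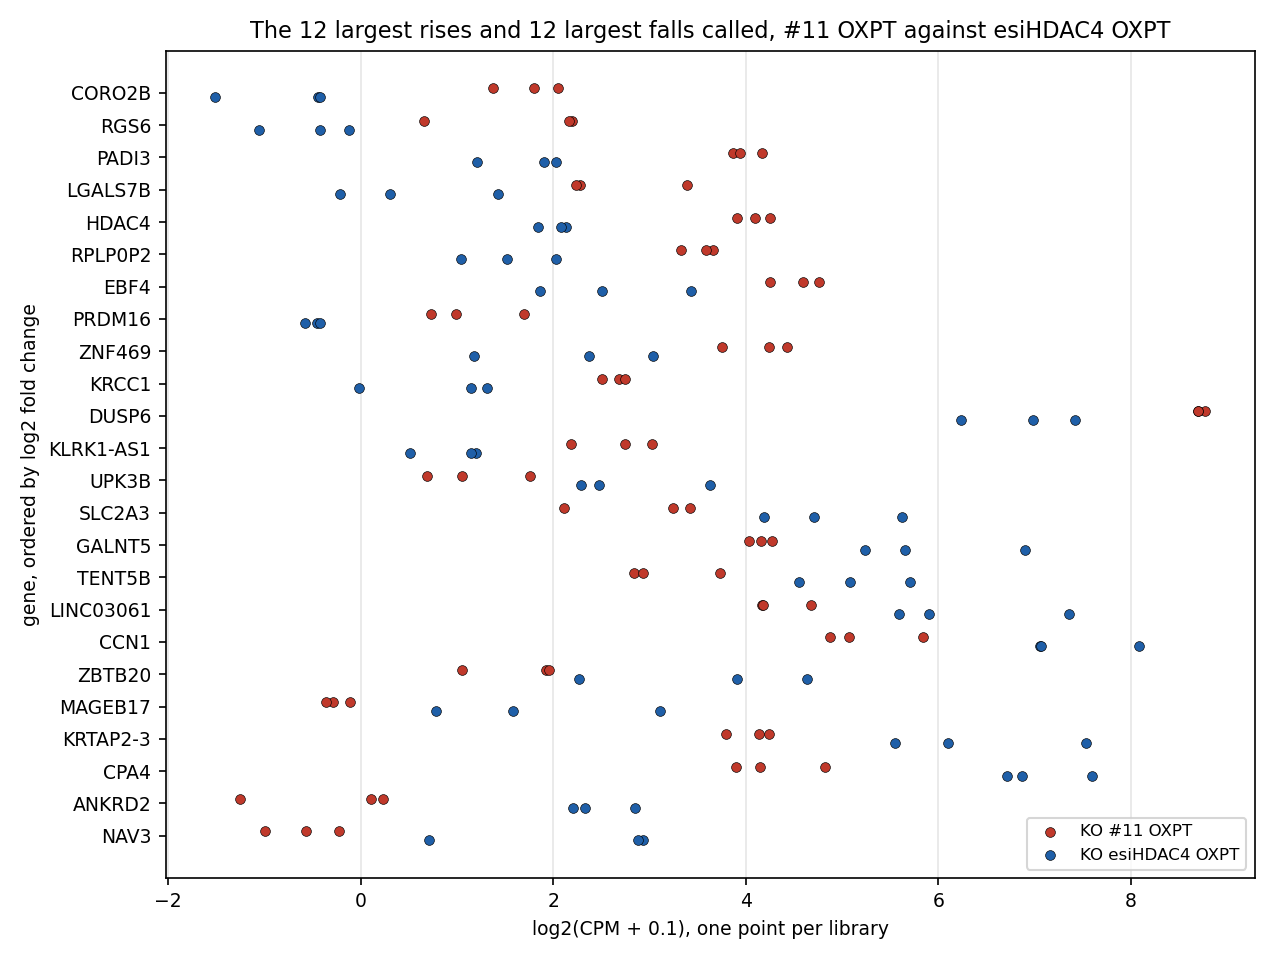
Level in each OXPT library of the 12 called genes with the largest rise and the 12 with the largest fall, as log2(CPM + 0.1), with #11 in red and esiHDAC4 in blue. The groups do not overlap for any of these genes by the rule that chose them, and several esiHDAC4 points lie apart from the other 2 of their group, as for NAV3 and ZBTB20.

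Genes not among the 12 were chosen after their values were seen. GAS6, the ligand of the TAM receptor kinases, shared the smallest adjusted p with HDAC4, at 81.0, 69.5 and 57.9 CPM in #11 OXPT and 22.7, 24.6 and 29.8 CPM in esiHDAC4 OXPT (log2 fold change 1.44, SE 0.18, adjusted p = 0.0126). RPS6KA2, a kinase of the RSK family downstream of ERK, rose by 1.66 (SE 0.27, adjusted p = 0.0224), from 2.52, 1.84 and 2.27 CPM with esiHDAC4 to 9.16, 5.73 and 6.10 CPM with #11. MTA1, a subunit of the NuRD histone deacetylase complex, rose by 0.81 (SE 0.15, adjusted p = 0.0303). The Wnt co-receptor LRP5 and the Wnt-responsive factor TCF7 rose by 0.94 and 0.84. MTA1, LRP5 and TCF7 were called in 4, 7 and 1 of the 12 fits that left out a library. Of the 12 tested in the list of other HDACs and corepressors, 0 were called by edgeR or DESeq2, with 1 higher and 1 lower with unadjusted p < 0.05. RCOR1, a scaffold of the CoREST complex, had a log2 fold change of 0.50 (adjusted p = 0.185) and SIN3A, the SIN3 scaffold, of -0.58 (adjusted p = 0.241). Without replicate 3 of esiHDAC4 OXPT, 1 of the 12 was called higher and 2 lower.

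DUSP6 and SPRY4, both feedback inhibitors that ERK signalling induces, were higher with #11 and were called in 9 of the 12 fits without 1 library. DUSP6, the ERK phosphatase, was at 437, 415 and 415 CPM in #11 OXPT and at 127, 75.5 and 170 CPM in esiHDAC4 OXPT, a log2 fold change of 1.77 (SE 0.29, adjusted p = 0.0224). SPRY4, which dampens receptor signalling to RAS and ERK, was at 73.6, 69.8 and 87.4 CPM against 40.4, 26.7 and 30.3 CPM, a log2 fold change of 1.24 (SE 0.18, adjusted p = 0.0224). Both rose in untreated cells as well, by 2.16 (adjusted p = 0.00116) and 1.41 (adjusted p = 0.00101). SPRY4-AS1, which is antisense to SPRY4 and was called at 1.15, cannot be told apart from it in counts without strand. SPRY4 was also called in the counts of each strand. Forward and reverse totals were nearly equal, so those calls do not separate the 2 genes.

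Few others of the immediate early list were called with them. Of its 22 members, all tested, 2 were called higher under OXPT (DUSP6 and SPRY4) and 1 lower, with a median log2 fold change of 0.14 beside 0.01 for all genes. That median ranged from -0.23 to 0.28 over the 23 other ways of processing, so its sign was not stable, and without replicate 3 of esiHDAC4 OXPT 4 members were called higher and 3 lower. The lower one was DUSP5, a nuclear ERK phosphatase, at 128, 121 and 188 CPM against 244, 267 and 263 CPM (log2 fold change -0.82, SE 0.17, adjusted p = 0.0431). FOS had 7.87, 7.24 and 54.7 CPM in #11 OXPT against 5.09, 4.5 and 8.59 CPM, so that its log2 fold change of 1.95 (SE 0.71, adjusted p = 0.168) came mostly from replicate 3 of #11. EGR1 had the same high library, at 55.5, 50.1 and 196 CPM against 46.2, 29.0 and 69.0 CPM. In untreated cells 13 of the 22 were called higher with #11, where 4.7% of all genes were, and the median was 1.38.

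CPA4, CCN1 and KRTAP2-3 were among the 12 largest falls. CPA4, a secreted carboxypeptidase, was at 17.7, 14.9 and 28.1 CPM in #11 OXPT and at 105, 193 and 117 CPM in esiHDAC4 OXPT, a log2 fold change of -2.77 (SE 0.43, adjusted p = 0.0224). CCN1, a matricellular protein gene at chr1:85580761-85584589 (hg38, plus strand), was at 33.7, 29.3 and 57.0 CPM against 133, 271 and 134 CPM. KRTAP2-3, a keratin-associated protein gene with close copies beside it, was at 18.9, 17.5 and 13.8 CPM against 46.6, 186 and 68.6 CPM, where replicate 2 of esiHDAC4 OXPT was the highest of the 6. The log2 fold changes were -2.17 (SE 0.35, adjusted p = 0.0224) for CCN1 and -2.58 (SE 0.46, adjusted p = 0.0267) for KRTAP2-3.

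NAV3 and ANKRD2 had the largest falls but low levels with #11. NAV3, a microtubule-associated protein of the neuron navigator family, was at 0.402, 0.754 and 0.577 CPM against 7.55, 7.29 and 1.54 CPM, with replicate 3 of esiHDAC4 OXPT the nearest to the #11 libraries (log2 fold change -3.23, SE 0.61, adjusted p = 0.0303). ANKRD2, a muscle ankyrin repeat protein, was at 0.321, 0.980 and 1.07 CPM against 4.53, 7.10 and 4.95 CPM (log2 fold change -2.79, SE 0.53, adjusted p = 0.0304). MAGEB17, ZBTB20, LINC03061, TENT5B, GALNT5, SLC2A3 and UPK3B complete the 12 largest falls, between -2.56 and -1.74. ANKRD2, MAGEB17 and UPK3B reached the mean count of 64 only in esiHDAC4 OXPT, where they are high, at 81.7, 67 and 113 reads, so their places depend on that filter. In all, 2 of the 109 higher and 4 of the 51 lower genes entered the test only through the OXPT group where they are high. Of the higher genes, CORO2B, FCGRT, TNFRSF13C, SPRY4-AS1 and ENSG00000267317 entered only through #11 UNT, where they are also high. CORO2B had a mean of 138 reads there and 41.3 in #11 OXPT. Of the 7 genes that complete the falls, TENT5B, a noncanonical poly(A) polymerase, was called in the most fits without 1 library, 9 of 12.

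CCN2, THBS1 and TEAD4 were also called lower and are named after their values were seen. CCN2, the connective tissue growth factor and a YAP and TEAD target like CCN1, was at 8.11, 7.54 and 20.3 CPM in #11 OXPT and at 40.4, 34.7 and 35.8 CPM in esiHDAC4 OXPT (log2 fold change -1.63, SE 0.33, adjusted p = 0.0358). THBS1, a matricellular thrombospondin, fell by 1.61 on the log2 scale, and TEAD4, a DNA-binding partner of YAP, fell by 1.03. No list of YAP and TEAD targets was drawn up, so no count over such a list is given.

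FTL led the falls at high expression. FTL, the light chain of the iron store ferritin, was at 1373, 1509 and 1864 CPM in #11 OXPT and at 3842, 2880 and 3840 CPM in esiHDAC4 OXPT, a log2 fold change of -1.15 (SE 0.18, adjusted p = 0.0224), and it fell by 1.07 without OXPT (adjusted p = 0.00466). The ferritin pseudogenes FTLP2 and FTLP3 moved with it, at -1.32 and -1.29, and may have taken reads from it. FTH1, the heavy chain, was at 246, 318 and 310 CPM against 536, 381 and 487 CPM, with an adjusted p of 0.0949. OSGIN1, an oxidative stress response gene, was at 42.0, 38.6 and 48.0 CPM against 167, 72.0 and 135 CPM (log2 fold change -1.54, SE 0.28, adjusted p = 0.0288). FTL and OSGIN1 were the 2 called members of 21 NRF2 targets tested, where 0.418% of all genes were called lower. With unadjusted p < 0.05, 9 of the 21 were lower and 0 higher, beside 9% and 10.5% of all genes. The list's median was -0.49 under OXPT and -0.20 without it. Without replicate 3 of esiHDAC4 OXPT, 6 were called lower under OXPT, where 1404 of 12239 genes were.

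Of 22 hypoxia-responsive genes that VHL restrains, 2 were called lower with #11 under OXPT and 0 higher, beside 0.418% and 0.894% of all genes. Without OXPT, 3 were called lower and 1 higher, beside 1.87% and 4.7%. SLC2A3, the glucose transporter GLUT3, was at 10.6, 4.22 and 9.40 CPM in #11 OXPT against 26, 18.2 and 49.2 CPM in esiHDAC4 OXPT (log2 fold change -1.95, SE 0.39, adjusted p = 0.0358). HK2, the hexokinase that opens glycolysis, was at 39.3, 24.7 and 24.3 CPM against 80.1, 55.9 and 139 CPM (log2 fold change -1.64, SE 0.34, adjusted p = 0.0394), and it was also lower in untreated cells, at -1.31 (adjusted p = 0.0345). The list had 20 members below 0 in each comparison, with a median of -0.36 under OXPT and -0.71 without it. Of all 12191 genes, 5941 were below 0 under OXPT and 6043 without it. Under OXPT that median ranged from -0.63 to 0.14 over the 23 other ways of processing, so its sign was not stable. With replicate 3 of esiHDAC4 OXPT left out, 3 members were called lower, where 1404 of 12239 genes were. SLC2A3 and HK2 were called in 5 and 3 of the 12 fits that left out a library.

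The untreated arms share no library with the OXPT arms, but they are not independent of them. All 12 libraries entered 1 fit, and the OXPT and untreated libraries of the same arm and number deviated together from their group means (correlations over genes of 0.28 to 0.29 for #11 and 0.20 to 0.68 for esiHDAC4). Without OXPT, 801 genes were called, 573 higher with #11 (4.7%) and 228 lower (1.87%), and 1813 when replicate 3 of esiHDAC4 OXPT was left out of the fit. Of the 109 genes called higher under OXPT, 94 (86.2%) were also above 0 without OXPT, where 50.4% of all genes were, and 40 were called higher and 1 lower. Genes that entered the test only through #11 UNT, such as CORO2B, were favoured by that filter to lie above 0 there. Of the 51 called lower under OXPT, 40 (78.4%) were below 0, where 49.6% of all genes were, and 11 were called lower and 5 higher. PADI3 and CPA4, for instance, differed less clearly without OXPT, at 1.14 (adjusted p = 0.0689) and -0.72 (adjusted p = 0.328).

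**Figure D4:**
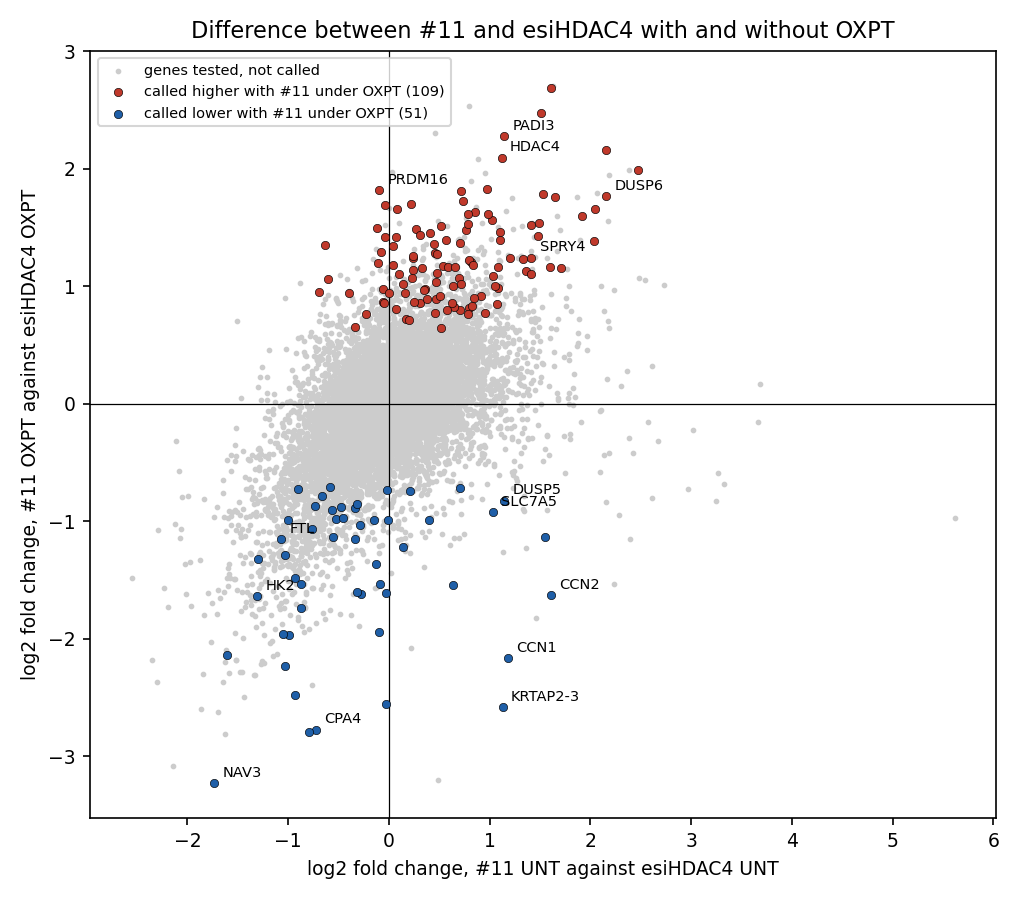
Log2 fold change of #11 against esiHDAC4 without OXPT (x axis) and with OXPT (y axis) for the 12191 genes tested, with genes called higher under OXPT in red and lower in blue. Most called genes lie on the same side of 0 on both axes, while CCN1, CCN2, KRTAP2-3, DUSP5 and SLC7A5 lie above 0 without OXPT and below 0 with it.

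Whether the difference between #11 and esiHDAC4 depended on OXPT was tested by the interaction, and 97 genes were called (0.796%), 84 of them lower under OXPT than without it (0.689%). With same-numbered libraries of each arm as a replicate block, 222 genes were called, 57 higher and 165 lower, and they held 96 of the 97. The pairing by number behind this block is uncertain. CCN1, lower with #11 under OXPT, was at 67.0, 70.8 and 35.0 CPM in #11 UNT and at 24.1, 30.1 and 21.9 CPM in esiHDAC4 UNT. Its log2 fold change without OXPT, 1.18, was not called in edgeR's test (adjusted p = 0.0564). The interaction of CCN1 was -3.35 (SE 0.49, adjusted p = 0.00629). CCN2 turned direction in the same way, at -3.24 (adjusted p = 0.00612), as did DUSP5 at -1.97 (adjusted p = 0.00324). The receptor kinase EPHA2 was at 330, 333 and 332 CPM in #11 OXPT against 551, 540 and 547 CPM in esiHDAC4 OXPT, and at 360, 337 and 290 CPM against 195, 224 and 186 CPM without OXPT, an interaction of -1.43 (SE 0.19, adjusted p = 0.00454).

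The list with the most interaction calls was that of ATF4 and stress response genes, which cells switch on when the initiation factor eIF2 alpha is phosphorylated. Of 27 members tested, 18 were called higher with #11 in untreated cells and 0 lower, with a median of 1.46, where 4.7% of all genes were called higher and 1.87% lower. Under OXPT 0 were called higher and 1 lower, with a median of -0.23, and DESeq2 called 1 higher and 2 lower. Without replicate 3 of esiHDAC4 OXPT, 1 was called higher and 4 lower. The interaction was called, and negative, for 11 of the 27 (15 with the replicate block), and the untreated count stayed between 14 and 23 over the 21 other ways of processing that gave it. DDIT3, the stress factor CHOP, was at 120, 113 and 97.9 CPM in #11 UNT against 10.0, 10.1 and 5.77 CPM in esiHDAC4 UNT. Under OXPT it was at 12.7, 10.5 and 31.9 CPM against 23.8, 24.8 and 12.6 CPM, overlapping groups with a log2 fold change of -0.16 (SE 0.38, adjusted p = 0.853). Its interaction was -3.82 (SE 0.55, adjusted p = 0.00604).

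ATF3, TRIB3 and genes of amino acid transport gave the same pattern. ATF3, a stress-induced factor, was at 62.3, 61.4 and 114 CPM in #11 OXPT and at 128, 151 and 114 CPM in esiHDAC4 OXPT (log2 fold change -0.72, SE 0.23, adjusted p = 0.13), while in untreated cells it rose by 2.97 (SE 0.25, adjusted p = 6.52e-05). Its interaction of -3.69 had the smallest adjusted p of all genes, 0.000377, shared with HOXB9. TRIB3, a pseudokinase that feeds back on ATF4, was at 56.9, 54.5 and 66.6 CPM against 76.7, 70.8 and 60.5 CPM under OXPT and rose by 3.02 without it. SLC7A5, the LAT1 transporter of large amino acids, was the called member under OXPT, at 499, 480 and 407 CPM against 795, 809 and 1021 CPM (log2 fold change -0.92, SE 0.19, adjusted p = 0.0431). Its partner chain SLC3A2 had -0.44 under OXPT (adjusted p = 0.146) and rose by 1.59 without it (adjusted p = 0.000128). DDIT3, ATF3, TRIB3 and SLC3A2 are named after their values were seen.

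**Figure D5:**
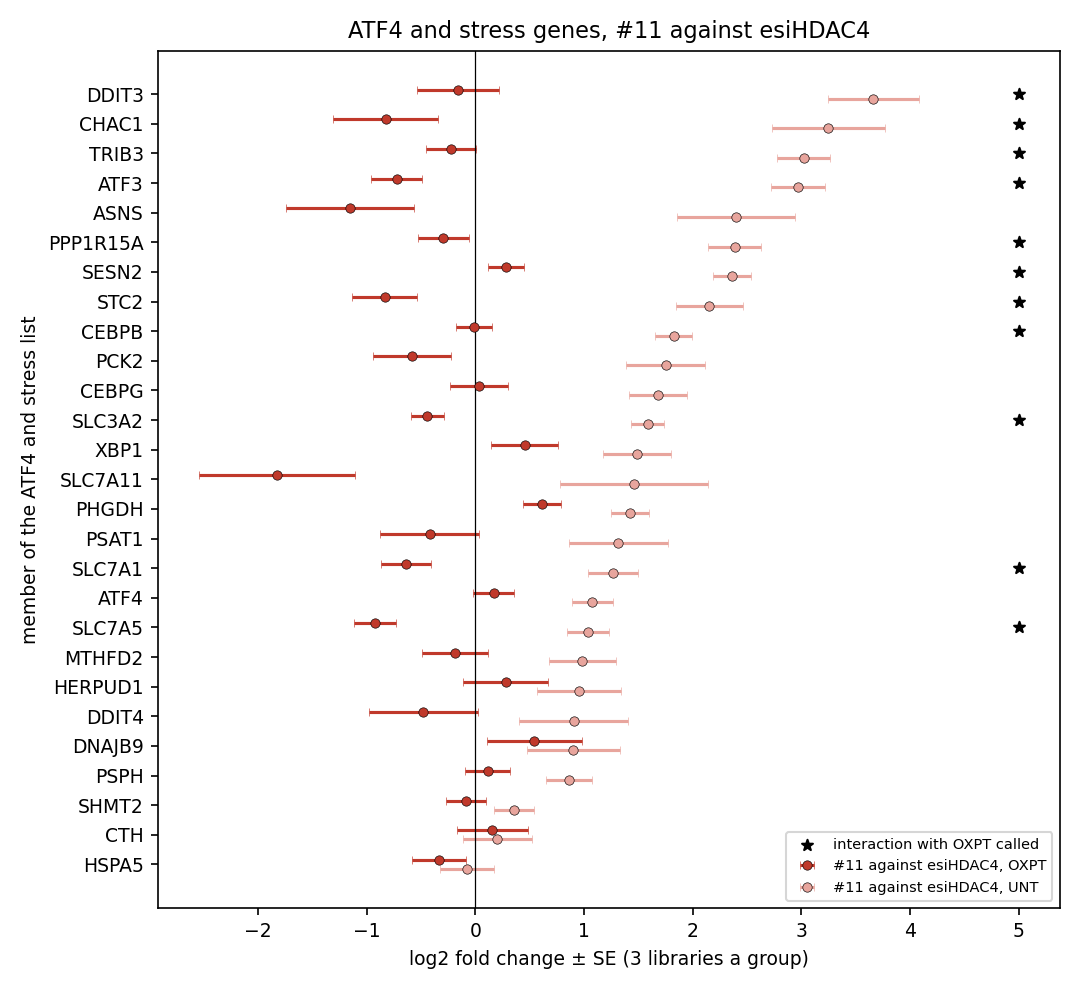
Log2 fold change of #11 against esiHDAC4 (x axis, with SE, 3 libraries a group) for the 27 tested members of the ATF4 and stress list, under OXPT in red and untreated in pink. Stars mark the 11 members whose interaction with OXPT was called. The untreated values reach 3.66 for DDIT3, while 18 of the 27 OXPT values lie below 0.

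Of 29 p53 targets tested, a group that platinum damage switches on, 0 were called by edgeR under OXPT, with a median of 0.15, while 5 were higher and 1 lower with unadjusted p < 0.05. DESeq2 called 2 higher and 1 lower, and without replicate 3 of esiHDAC4 OXPT edgeR called 2 higher and 3 lower. In untreated cells edgeR called 7 of the 29 higher with #11 and 1 lower, beside 4.7% and 1.87% of all genes. CDKN1A, the p21 inhibitor of cell cycle kinases, was at 2831, 2606 and 2581 CPM in #11 OXPT and at 3265, 3334 and 3500 CPM in esiHDAC4 OXPT, groups that did not overlap, with a log2 fold change of -0.33 (SE 0.16, adjusted p = 0.265). MDM2, the ligase that limits p53, was at 334, 304 and 266 CPM against 557, 521 and 205 CPM, with replicate 3 of esiHDAC4 below all of the #11 libraries. GADD45A, a damage and stress gene, was the nearest to a call, at 282, 315 and 320 CPM against 174, 182 and 229 CPM (log2 fold change 0.65, SE 0.15, adjusted p = 0.0627), and TRIAP1 had 0.94 (adjusted p = 0.0654).

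The BCL2 family had 0 called of 15 members tested by edgeR or DESeq2, with 1 higher and 1 lower with unadjusted p < 0.05 and a median of 0.13. Leaving out replicate 3 of esiHDAC4 OXPT, edgeR called 2 higher. PMAIP1, the BH3-only protein NOXA, was at 57.9, 84.0 and 216 CPM with #11 against 136, 93.7 and 87.6 CPM with esiHDAC4, so that its spread within #11 exceeded the difference (log2 fold change 0.18, SE 0.36, adjusted p = 0.824). BBC3, the BH3-only protein PUMA, was at 167, 171 and 131 CPM against 133, 154 and 146 CPM, a log2 fold change of 0.11 (SE 0.22, adjusted p = 0.804). Without OXPT, edgeR called BBC3 higher with #11, by 1.01 (adjusted p = 0.0177). PMAIP1 had 1.29 there and was not called (adjusted p = 0.052). In untreated cells 3 of the 15 were called higher and 0 lower, beside 4.7% and 1.87% of all genes. Homologous recombination had 0 called of 25 by either tool, with 2 higher and 3 lower with unadjusted p < 0.05, and 8 called lower without replicate 3 of esiHDAC4 OXPT. RPA2, a single-strand DNA binding subunit, had a log2 fold change of 0.50 (adjusted p = 0.159). BRCA2 was at 1.37, 1.81 and 2.23 CPM against 8.36, 7.36 and 0.486 CPM, where replicate 3 of esiHDAC4 OXPT was the lowest of the 6.

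Of the 35 G2 and mitosis genes tested, edgeR called 0 under OXPT and 7 lower with #11 without it, and the medians were -0.07 and -0.74. Of all genes, 1.87% were called lower without OXPT. The interaction was called for 0 of the 35, and the OXPT median ranged from -0.18 to 0.15 over the other ways of processing. With unadjusted p < 0.05, 2 were higher and 5 lower under OXPT, and DESeq2 called 1 in each direction. Without replicate 3 of esiHDAC4 OXPT, 12 were called lower, where 1404 of 12239 genes were. MKI67 was at 22.3, 30.8 and 34.5 CPM in #11 OXPT against 151, 226 and 20.9 CPM (log2 fold change -2.18, SE 0.60, adjusted p = 0.0917) and had -2.35 without OXPT, and it is again replicate 3 of esiHDAC4 OXPT that overlaps the #11 libraries. The 16 heat shock chaperones had 0 called under OXPT and 7 called lower without it, beside the same 1.87% of all genes. Their medians were -0.25 and -0.93. Under OXPT 1 was higher and 2 lower with unadjusted p < 0.05, and DESeq2 called 2 lower. Without replicate 3 of esiHDAC4 OXPT, 4 were called lower, and the interaction was called for 1 of the 16. HSPD1, the mitochondrial HSP60, was at 383, 370 and 342 CPM against 949, 995 and 379 CPM (adjusted p = 0.114). That 1 was HSPA1B, a stress-induced HSP70, with an interaction of 2.21 (SE 0.46, adjusted p = 0.0453).

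MEF2 factors with KLF and NR4A genes, which class IIa HDACs are known to repress in part, had 0 called of 11 by edgeR under OXPT, 1 lower with unadjusted p < 0.05 and 1 lower by DESeq2, with a median of -0.29 beside 0.73 without OXPT. In the fit without replicate 3 of esiHDAC4 OXPT, 2 were called lower. NR4A2, an orphan nuclear receptor, was at 23.1, 19.2 and 29.9 CPM against 23.3, 23.4 and 22.5 CPM (log2 fold change 0.06, SE 0.25, adjusted p = 0.916). NR4A1 was at 33.1, 31.9 and 43.6 CPM against 54.1, 64.4 and 53.1 CPM, groups apart but not called (log2 fold change -0.66, SE 0.17, adjusted p = 0.0802), and its interaction was called at -1.29 (adjusted p = 0.026). RNF43, a Wnt feedback ligase, was at 120, 95.6 and 53.4 CPM against 49.9, 66.0 and 82.2 CPM, overlapping groups (adjusted p = 0.424). Lists of genes beside super-enhancers were drawn by the study from chromatin data of these cells and are not independent of it. The study defined group 1 by loss of the histone mark H3K27ac after HDAC4 silencing in OXPT-treated KO cells, and group 2 by its gain. That is the treatment of the esiHDAC4 OXPT arm here. The lists had 1 of 60 (group 1) and 1 of 24 (group 2) called, both lower. With unadjusted p < 0.05, 7 were higher and 10 lower in group 1, and 5 higher and 6 lower in group 2. DESeq2 called 4 and 3 lower, and without replicate 3 of esiHDAC4 OXPT 3 were called higher and 11 lower in group 1, and 2 higher and 6 lower in group 2. The 2 called genes were TES, a focal adhesion protein, at -0.74 (adjusted p = 0.0469) and IRS2, an insulin receptor substrate, at 24.4, 21.3 and 33.5 CPM against 52.8, 64.3 and 59.4 CPM (log2 fold change -1.15, SE 0.20, adjusted p = 0.0267). TES was called in 1 of the 12 fits that left out a library, and IRS2 in 8.

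Each remaining list had at most 1 called member, where 0.894% of all genes were called higher and 0.418% lower. Complex I subunits had 0 called of 34, 0 with unadjusted p < 0.05 and a median of 0.01. The other respiratory complexes had 0 of 38, with 1 higher unadjusted, 1 by DESeq2 and a median of 0.08. Cytosolic ribosomal proteins had 0 of 79, with 2 higher unadjusted and a median of 0.09. Proteasome subunits had 0 of 30, with 2 lower unadjusted and a median of -0.05. DNA replication genes had 0 of 37, with 2 higher and 4 lower unadjusted. Sterol and fatty acid synthesis had 0 of 33, with 1 higher and 2 lower unadjusted and 1 lower by DESeq2. Interferon-stimulated genes had 0 of 19 (3 higher and 1 lower unadjusted), NF-kB targets 0 of 14 (1 lower) and VHL ligase subunits 0 of 5 (1 higher). Mitochondrial mRNAs had 0 of 13, with 3 higher unadjusted. Basement membrane genes had 0 of 16, with 4 higher and 2 lower unadjusted, and DESeq2 called 1 higher and 2 lower. Long nuclear RNAs had 0 of 10, with 1 unadjusted in each direction and 1 lower by DESeq2. S100 proteins and annexins had 1 of 17, S100A10, the partner of annexin A2, at 190, 205 and 194 CPM against 279, 376 and 447 CPM (log2 fold change -0.90, SE 0.20, adjusted p = 0.0488). Without replicate 3 of esiHDAC4 OXPT, 6 ribosomal protein genes and 3 of respiratory complexes II to V were called higher, 2 proteasome, 2 interferon-stimulated, 1 VHL ligase, 1 mitochondrial and 1 long nuclear RNA gene were called lower, and complex I still had 0. DNA replication then had 1 higher and 5 lower, sterol and fatty acid synthesis 1 and 3, NF-kB targets 2 and 2, basement membrane 2 and 2, and S100 proteins and annexins 3 and 3. Over all genes, the same fit called 1095 higher and 1404 lower of 12239 tested. No list was tested against that share.

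Base composition moved with the comparison. The genes called higher with #11 had a median exonic GC content of 54.9% and those called lower 51.5%, beside 49% for all genes tested, and median exonic lengths of 6014, 4764 and 5321 bases. Over all genes, the median log2 fold change rose from -0.18 among the 20% of genes lowest in GC to 0.15 among the 20% highest. The libraries differed in this within groups too, since the median log2 deviation from the mean of the libraries, highest minus lowest GC class, was 0.70, 0.57 and 0.04 in #11 OXPT and -0.59, 0.11 and 0.92 in esiHDAC4 OXPT. The part of base composition in the calls was not tested.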

How the data were processed

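Per the labels, polyA RNA of 36 libraries was sequenced, and the submitters' processing notes name Trimmomatic 0.39, STAR 2.7.11a and hg38. The authors deposited raw counts per gene for each library, with unstranded, forward and reverse columns; which counter and annotation made them is not stated in those notes, and the study's methods describe another route. The unstranded counts were used because reverse and forward totals were nearly equal, with ratios of 1.005 to 1.016. Of 62757 gene identifiers, 62130 matched GENCODE 44 with their version.

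In R 4.3.3, edgeR 4.0.16 (TMM, quasi-likelihood test, Benjamini-Hochberg adjustment) was fitted to 12 libraries in 4 groups of 3, with 1 coefficient per group and no block, over genes whose mean count reached 64 in any group. Genes were called at an adjusted p under 0.05 and a fold over 1.5. SE is the log2 fold change over the root of F. The script was tested on simulated data. All members, gene lists and tests were chosen with earlier results of these data known. Named genes were a fixed set of 11, the 12 largest rises and 12 largest falls called without overlap, and, in each list, up to 4 called members or otherwise the 2 of smallest p. Among 12 pairs of replicates, none had identical counts, and the chi-square per degree of freedom was at least 8.31. The 18 WT libraries, whose label entries conflict, entered no test, and the 6 esiCT libraries entered only the alternative fit of 18 KO libraries. For the block within each arm, OXPT and untreated libraries were taken as paired by number. All 3 pairs in each arm correlated in their deviations from the group means (0.28, 0.28 and 0.29 for #11, and 0.2, 0.59 and 0.68 for esiHDAC4). Replicate 1 of esiHDAC4 OXPT correlated better with untreated replicate 2 (0.35), so this pairing is uncertain. Libraries of different arms were not taken as paired. Alternatives were DESeq2 1.42.0, other scaling, filters, strands, sample sets, the replicate block and leaving out each library. Totals of 12436981 to 20527222 counts per library set the precision at low levels.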

Additional observations from a re-analysis of the deposited data

Results flagged for a closer look

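The difference between #11 and esiHDAC4 itself differed between OXPT and untreated cells for 25 genes that are named or belong to a list, by the interaction in edgeR's quasi-likelihood test. The values are log2 differences, OXPT minus untreated, and no explanation was tested. In the ATF4 and stress response list these were CHAC1 (-4.07), DDIT3 (-3.82), ATF3 (-3.69), TRIB3 (-3.24), STC2 (-2.99), PPP1R15A (-2.68), SESN2 (-2.08), SLC3A2 (-2.03), SLC7A5 (-1.96), SLC7A1 (-1.90) and CEBPB (-1.83). Immediate early genes outside that list were JUN (-3.85), DUSP5 (-1.97) and ZFP36 (-1.70). The p53 targets GDF15 and GADD45A had -2.15 and -1.54, and the orphan receptor NR4A1 had -1.29. KRT80 (-3.77), AREG (-1.79) and PRAG1 (-1.28) belong to the super-enhancer lists, which the study drew up from these cells. The non-coding RNAs SNHG1 and GAS5 had -1.14 and -1.03, and KRTAP2-3 and CCN1, named for their falls, had -3.71 and -3.35. HSPA1B had 2.21, the only positive value of the 25. CHAC1, a glutathione-degrading enzyme, was higher with #11 in untreated cells by 3.25 (adjusted p = 0.00332) and had -0.83 under OXPT, where it was not called.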

How the results depend on the processing

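The direction of each of the 160 called genes was the same under all of the 23 alternatives that tested it, but the number called was not. The kept direction was largely fixed in advance, since the groups of all 160 did not overlap. Against 160 called (109 higher, 51 lower), a fit of only the 6 OXPT libraries gave 0 in both directions, and all 18 KO libraries gave 82 (51 higher, 31 lower). DESeq2 gave 635 (366 higher, 269 lower), no filter on low counts gave 1278 (384 higher, 894 lower), and a mean count of 64 in every group gave 78 (49 higher, 29 lower), 78 of them shared with the 160. RLE and upper quartile factors and the counts of either strand stayed between 133 and 170. Without 1 library the count ranged from 0 to 2499, that of higher genes from 0 to 1095 and that of lower genes from 0 to 1404, with 0 without replicate 1 or 2 of #11 OXPT or replicate 2 of esiHDAC4 OXPT, and 2499 without replicate 3 of esiHDAC4 OXPT. It was 45 without replicate 3 of #11 OXPT, 97 without replicate 1 of esiHDAC4 OXPT, 20 and 39 without replicates 1 and 2 of #11 UNT, and 47, 85 and 84 without replicates 1, 2 and 3 of esiHDAC4 UNT. The interaction count of 97 became 273 with DESeq2 and 225 without a filter, and ranged from 29 to 350 without 1 library. The untreated count of 801 became 1314 with DESeq2 and 1764 without a filter, and ranged from 215 to 1813. Fewer genes or libraries enter some of these fits; otherwise the cause was not tested. Of 33 called named genes, none was reversed in 728 alternative values, and 323 of those were no longer past the threshold. The lack of reversals follows largely from groups that do not overlap.

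Replicate numbers did not pair the #11 with the esiHDAC4 libraries. Under OXPT the deviations of same-numbered libraries correlated at -0.24, 0.18 and -0.11 over genes, and not every library correlated best with its own number. With the replicate block across arms, 257 genes were called (198 higher, 59 lower), and the interaction and untreated counts were 91 and 916. The replicate block with only the 6 libraries gave 0. Within each arm, OXPT and untreated libraries of the same number correlated in every pair. Replicate 1 of esiHDAC4 OXPT, however, correlated better with untreated replicate 2 (0.35) than with untreated replicate 1 (0.2). The pairing by number is therefore uncertain. A block of these pairs, chosen after seeing the data, raised the interaction count from 97 to 222. It kept the call of all 25 named or list genes with one. The median of 19 of the 29 lists under OXPT took both signs over the 23 alternatives, so the sign of such a median near 0 was not stable. NAV3 and ANKRD2 are at a few reads in the #11 OXPT libraries, which limits the precision of their folds.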

Other observations

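The control libraries of KO cells with esiCT and OXPT are in none of the groups compared above, and their levels are given here as values, with all 18 KO libraries scaled together. Of the 109 genes called higher with #11, the control mean was nearer to esiHDAC4 OXPT for 84 and nearer to #11 OXPT for 25. Without the control's replicate 3, of which 22.31% of reads were unmapped, these counts were 89 and 20. Of the 51 called lower, the control mean was nearer to esiHDAC4 OXPT for 42, and for 39 without replicate 3. The same share over all genes was not taken, and the called genes were chosen on these same 2 OXPT groups. The counts therefore do not show which arm departed from the control. Control levels of DUSP6 were 114, 65.6 and 237 CPM, beside means of 414 CPM in #11 OXPT and 125 CPM in esiHDAC4 OXPT. PADI3 was at 3.06, 1.76 and 3.02 CPM in the control, beside 15.6 and 3.29 CPM. CPA4 was at 101, 190 and 97.6 CPM, beside 19.8 and 137 CPM. FTL was at 2032, 1843 and 3950 CPM, beside 1550 and 3527 CPM, and its control mean was nearer to esiHDAC4 OXPT with replicate 3 and nearer to #11 OXPT without it. No difference from the control was tested.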
